A study of Mus musculus with 24 samples.

Results

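Constitutive distal regions are the places in the genome, away from gene starts, that were open in both neuron classes at every age examined. They were chosen by presence. Joining the peaks of 12 peak lists wherever they shared 1 bp or more gave 85867 union regions, of which those were kept that had a peak from every list and lay more than 1 kb from all annotated transcription start sites (TSSs). This gave 596 regions out of 71589 distal regions. The other 2579 regions present in all 12 lists lay within 1 kb of a TSS and are called constitutive promoters below. Presence in the lists selected the regions, so their presence is not a result.

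The lists came from ATAC-seq, in which a transposase cuts open chromatin, on 24 libraries of mouse cortical pyramidal neurons from the somatosensory and motor cortex of mice labelled C57BL/6, on a mixed C57BL/6J background by the study's methods. Cux2 CPNs, upper-layer callosal projection neurons, carried Cux2-CreERT2:Ai14, and Tle4 CThPNs, deep-layer corticothalamic projection neurons, carried Tle4-2A-CreERT2:Ai14. In both lines 4-hydroxytamoxifen given to the pregnant mother before birth switched on tdTomato, and the labelled cells were sorted as pools of animals. Early lists are those of E18.5, P1, P3 or P7, late lists those of P21 or P48. The Cre is driven from the Cux2 or Tle4 locus, every group carries Cre, reporter and drug, and the Cux2 line can also label some interneurons. The authors pooled the 2 replicates of each class and age into 1 list, so replicate error cannot be given and the spread is that between lists.

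The lists held 6540 (Tle4 P21) to 45649 (Cux2 P48) peaks, and they do not show the read depth behind each. Constitutive distal regions made up 1.32% of the regions of the longest list and 9.14% of those of the shortest. Promoter peaks were checked against markers. Of 6 pyramidal neuron markers, 1 to 4 had a promoter peak in a list, with Neurod6 in 11 lists and Tbr1 in 8. Of 5 interneuron markers, 0 to 4 did, and the 4 were all in the Cux2 E18.5 list. Astrocyte markers gave 0 to 2 of 5, oligodendrocyte markers 0 to 1 of 6, microglial markers 0 to 1 of 5 and endothelial markers 0 of 4. The 4 interneuron markers in the Cux2 E18.5 list were Gad2, Dlx1, Dlx2 and Lhx6. The part of other cells in the results was not tested.

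Most open sites away from promoters are enhancers whose accessibility changes with cell type and age. Distal sites that stay open in many cells are of other kinds. Some are bound by CTCF, a zinc finger protein that marks the ends of chromatin loops. Others look like promoters: CpG islands, CCAAT boxes bound by NF-Y, GC boxes bound by SP and KLF factors, or internal promoters of tRNA genes. The regions were read for these sequences in the 300 bp around the summit, the position of the strongest signal, taken as the median over the lists. The CCAAT word and the tRNA gene element were added after the data were seen.

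The first sequences shown are those of 6 constitutive distal regions with an exact match to the CTCF core motif, a 14-letter pattern searched on both strands. They were among the strongest of the matches and lie outside exons. Each is named by its nearest protein-coding gene and written 5′ to 3′ on the strand of the motif, with the match in capitals. Build NCBIM37 (mm9) was used throughout.
Dok1, chr6:82946801-82946860, plus strand: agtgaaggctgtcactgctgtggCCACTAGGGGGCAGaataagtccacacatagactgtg
Eea1, chr10:95676657-95676716, plus strand: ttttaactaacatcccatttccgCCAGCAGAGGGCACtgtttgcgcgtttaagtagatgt
Impdh1, chr6:29148778-29148837, minus strand: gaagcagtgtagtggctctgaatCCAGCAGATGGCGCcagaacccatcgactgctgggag
Gm17567, chr10:33706769-33706828, plus strand: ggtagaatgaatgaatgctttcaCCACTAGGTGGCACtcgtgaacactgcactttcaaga
Fhl5, chr4:25107189-25107248, minus strand: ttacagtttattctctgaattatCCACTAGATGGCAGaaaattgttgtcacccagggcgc
P2ry14, chr3:58924594-58924653, plus strand: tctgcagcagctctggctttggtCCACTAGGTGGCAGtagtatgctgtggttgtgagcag

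The CTCF core motif was in 44 of the 596 regions (7.38%, 95% Wilson interval 5.55 to 9.77). Over all distal regions the share was 2.31% (1657 of 71589), and over constitutive promoters 0.504%. At equal list length (6538 peaks each) it was 3.54%, 4 of the 113 regions then left. With up to 1 mismatch the motif was in 115 regions (19.3%) against 7.44% of all distal regions. Regions are not independent replicates, so these intervals cover counting error only and no test was run. In the regions with a match in the 500 bp around the summit, the match sat close to it. For the 46 regions with an exact match in this wider window, the nearest match was a median of 31 bp from the summit, and in 40 of them it was within 50 bp. For the 127 regions with a match of up to 1 mismatch the median was 35 bp, and 93 were within 50 bp.

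**Figure D1:**
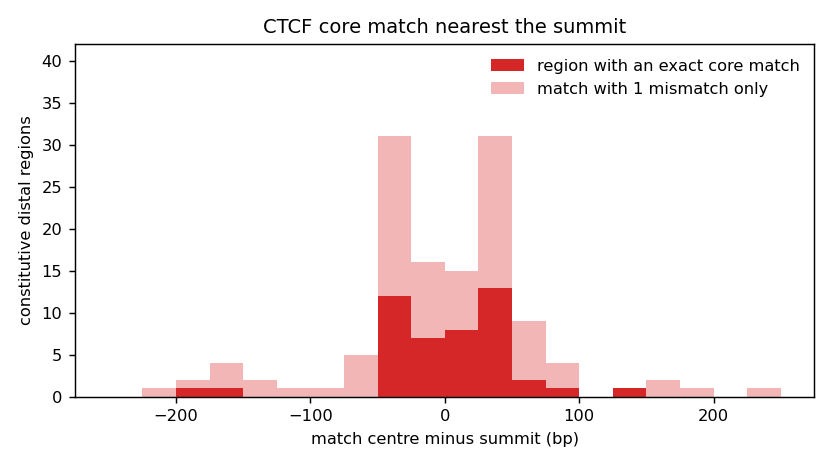
Distance from the summit to the centre of the nearest CTCF core match (x axis, bp) in the 127 constitutive distal regions with a match of up to 1 mismatch in 500 bp; bars count regions in steps of 25 bp, dark for the 46 regions that hold an exact match. Most matches, 93 of 127, lie within 50 bp on either side.

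The share with the CTCF core motif was low in distal regions found in few lists and higher in those found in many. It was 1.59% in regions found in 1 list, 2.69% in 4 lists, 4.96% in 8 lists and 5.83% in 11 lists. From 7 lists on, the intervals overlapped that of the constitutive regions. With up to 1 mismatch the share was 22.8% in 11 lists and 19.3% in 12. Such overlap is not a test, and a difference in the CTCF share between constitutive regions and those missing from 1 to 5 lists was not tested.

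CpG-rich sequence was the next feature read. A region was called CpG-rich when its window had over 50% GC and a CpG observed/expected ratio over 0.6. Of the constitutive distal regions, 86 were CpG-rich (14.4%, interval 11.8 to 17.5), against 7.77% (5.91 to 10.2) of the distal regions in 11 lists, 1.08% of those in 1 list and 80.0% of constitutive promoters. Measured over the whole merged region in place of the window, the share was 8.89%. Median GC content was 49.3%, between 44.3% in the other distal regions and 61.3% in the constitutive promoters. The median CpG ratio was 0.327, between 0.214 and 0.791. CpG-rich regions lay nearer to genes, a median of 10500 bp from a TSS against 20630 bp for the 510 CpG-poor ones. Of the CpG-rich regions, 82.6% were intergenic, against 58.4% of the CpG-poor ones.

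**Figure D2:**
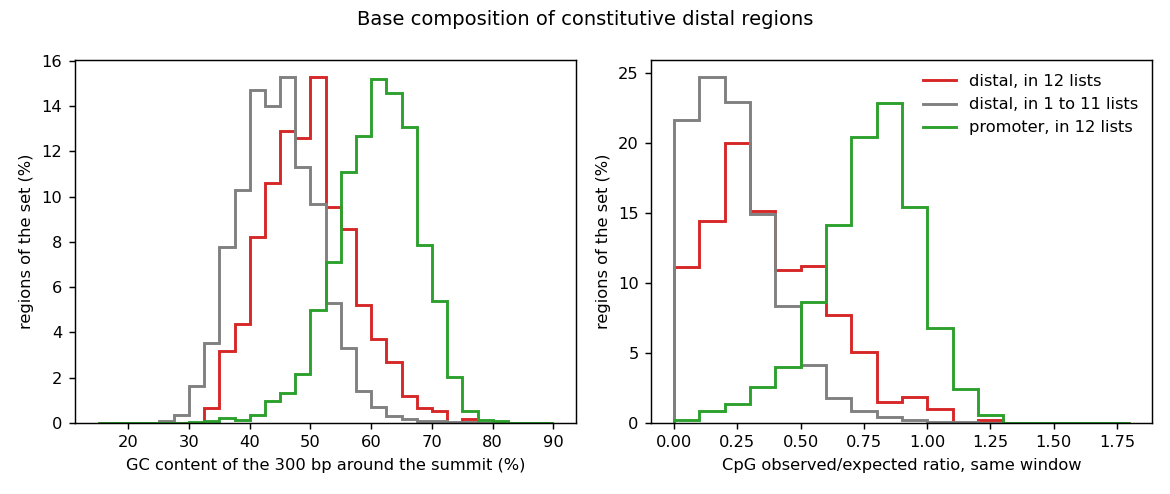
GC content (left, %) and CpG observed/expected ratio (right) of the 300 bp around the summit, as the percentage of regions of each set in each bin. The 596 constitutive distal regions (median GC 49.3%) lie between the 70993 distal regions of 1 to 11 lists (44.3%) and the 2579 constitutive promoters (61.3%).

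A screen of all 7-letter words on the odd-numbered chromosomes, made after the data were seen, ranked 10 words highest, of which all but CCAATCA held a CpG. This word is a form of the CCAAT box that NF-Y binds. On the other chromosomes, which the screen had not used, it was in 34 of 277 constitutive distal regions (12.3%) and in 2.95% of the other distal regions. The shares that follow include the chromosomes that chose the word, so they add no separate support. Over all chromosomes it was in 77 of 596 (12.9%, interval 10.5 to 15.8), against 5.99% (4.38 to 8.14) in 11 lists, 3.07% in 1 list and 27.4% of constitutive promoters. Among CpG-poor regions 57 of 510 held it (11.2%), against 3.03% of all CpG-poor distal regions. The sequences below are the 4 regions with the word that had the highest mean percentile, with the word in capitals.
Gm6712, chr17:17371660-17371706, plus strand: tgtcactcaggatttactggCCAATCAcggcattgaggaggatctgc
Gm6712, chr17:17431224-17431270, plus strand: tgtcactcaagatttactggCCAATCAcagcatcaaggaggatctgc
BC002059, chr17:17141911-17141957, plus strand: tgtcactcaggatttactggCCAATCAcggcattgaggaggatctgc
Zfp964, chr8:72178288-72178334, plus strand: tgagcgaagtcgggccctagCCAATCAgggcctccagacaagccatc

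The first 3 of these, on chromosome 17, are near copies. The strongest matched the BC002059 one at 94.7% identity over 300 bases, and that one matched the second Gm6712 one at 94.3%. In all, 20 of the 596 regions (3.36%) had a copy elsewhere in the genome of at least 90% identity over 200 bp, against 29 of 2579 constitutive promoters (1.12%). Reads from such copies cannot be told apart with certainty, and the values of these regions carry that limit. None of the 596 windows resembled mitochondrial DNA.

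Further motifs were more frequent than over all distal regions. The GC box GGGCGG, bound by SP and KLF factors, was in 114 regions (19.1%, against 5.66% of all distal regions and 72.5% of constitutive promoters). The cyclic AMP response element TGACGTCA was in 14 (2.35% against 0.454%), the ETS site CCGGAAGT in 10 (1.68% against 0.237%) and the NRF1 site GCGCATGC in 12 (2.01% against 0.559%). The RFX word GTTGCCA, one arm of the X box that RFX factors bind, was in 63 (10.6%, interval 8.35 to 13.3, against 5.37% of all distal regions and 4.81% of promoters). Of the distal regions in 11 lists, 11.8% held the GC box (interval 9.5 to 14.6). This lies below the interval of the constitutive regions, 16.2 to 22.5. For the other motifs of this paragraph the intervals overlapped. Their shares in 11 lists were 0.971% (cyclic AMP response element), 0.485% (ETS), 2.104% (NRF1) and 7.77% (RFX). Higher shares of these were thus not shown to be particular to the constitutive regions. A base can belong to matches of several motifs, and each motif was counted on its own on both strands.

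Other motifs were less frequent than over all distal regions. The proneural E-box CAGATG was in 147 regions (24.7%, interval 21.4 to 28.3), against 34.6% of all distal regions and 31.2% (27.7 to 35.0) of those in 11 lists. The AP-1 site TGANTCA, bound by FOS and JUN, was in 68 (11.4% against 18.3%), the MEF2 site in 25 (4.19% against 7.45%) and the homeobox word TAATTA in 34 (5.70% against 8.62%). In 11 lists the shares of these were 14.2%, 6.31% and 4.85%, with intervals that overlapped those of the constitutive regions. The AP-1 share was 9.07% in 10 lists, so low shares are not particular to the constitutive regions. For rare motifs the counts were too small to place them: the T-box word AGGTGTGA was in 3 (0.503%, interval 0.171 to 1.47, against 1.18%). The SOX word AACAATGG was in 6 (1.01% against 0.862%) and the YY1 site AAGATGGCG in 4 (0.671% against 0.180%). The EGR site GCGTGGGCG and the full NFI site were in none, for which the Wilson upper limit is 0.640%, and they were in 0.0838% and 0.0196% of all distal regions.

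**Figure D3:**
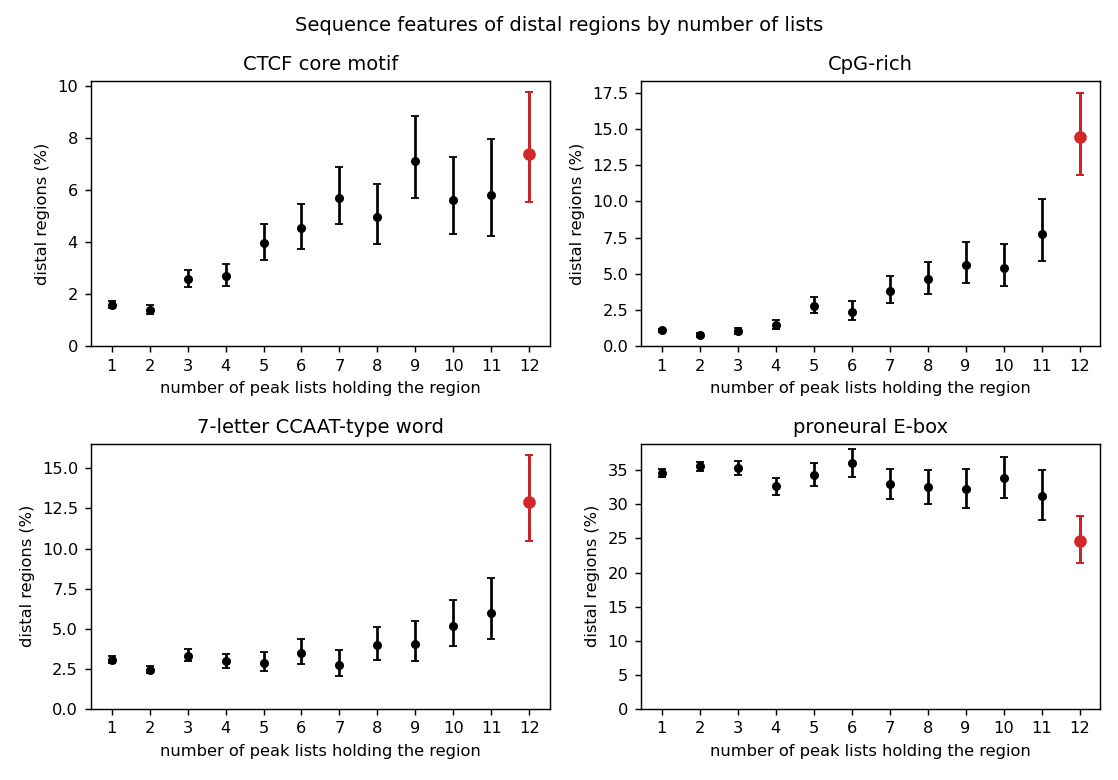
Share of distal regions (y axis, %) with a CTCF core motif, a CpG-rich window, the word CCAATCA or a proneural E-box, by the number of peak lists that hold the region (x axis); bars are 95% Wilson intervals and the constitutive regions are red. The CTCF share is 7.38% at 12 lists and 5.83% at 11, while the CpG-rich share is 14.4% and 7.77%, that of CCAATCA 12.9% and 5.99%, and that of the E-box 24.7% and 31.2%.

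A small group carried the B box GTTCGANTC, the internal promoter element of tRNA genes, a motif added after the data were seen. It was in 7 regions (1.17%, interval 0.570 to 2.40) in 76 of all 71589 distal regions (0.106%), and in 6 of the 618 in 11 lists (0.971%, interval 0.446 to 2.102), so it is not particular to the constitutive ones. Of the 7, 4 were CpG-rich. Their mean percentiles ran from 4.13 near Atp10a to 35.1 near Ncoa7, where the median over all 596 was 36.1. The stretch near Kpna2 is shown with the B box in capitals.
Kpna2, chr11:106874182-106874290, plus strand: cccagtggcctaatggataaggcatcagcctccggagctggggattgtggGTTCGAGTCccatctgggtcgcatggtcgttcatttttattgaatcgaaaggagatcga

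Constitutive distal regions were spread over all autosomes, with 8 on chromosome X and 0 on Y. They lay a median of 17842 bp from a TSS, with 29 within 2 kb and 59 over 100 kb away. By summit, 369 were intergenic (61.9%, against 51.9% of the other distal regions and 60.5% of those in 11 lists), 207 were in introns, 6 in coding exons, 9 in UTR exons and 5 in noncoding exons. The merged regions were a median of 1037.5 bp wide, against 621 bp for the other distal regions. A region merged from more lists is wider by construction, so this was not compared further. Summits sat close together across lists: the SD of a region's summit over the 12 lists was a median of 25.9 bp, close to the 27.0 bp of the other distal regions and the 24.3 bp of constitutive promoters. Zinc finger genes (symbols starting with Zfp, Zkscan or Zscan), a group looked at after the data were seen, were the nearest protein-coding gene of 20 regions (3.36%, interval 2.18 to 5.13), against 1.13% of the other distal regions and 2.48% of constitutive promoters. In distal regions of 11 lists the share was 2.43% (interval 1.48 to 3.97), which overlaps, and such genes were 1.76% of all protein-coding symbols.

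Strength was read as the fold enrichment of the strongest peak of a region in a list, the ratio over background that the authors' peak caller gave. Because this scale differs between lists, each region was also ranked as a percentile among the same 3175 regions that are in all lists. The strongest constitutive distal region was chr17:17371265-17372280, nearest to Gm6712 at -80489 bp from its start, with a fold enrichment of 18.3 (Cux2 P48) to 26.0 (Cux2 P1) and a percentile of at least 93.7 in every list. It is one of the copied regions above. Next came a region at -5897 bp from the start of Srbd1 (18.3 to 24.4), with no copy, and an intronic one 11877 bp downstream of the start of Ddx21 (16.3 to 26.0), which encodes an RNA helicase of ribosome production. Of the 10 strongest, 5 held CCAATCA, 5 held the GC box, 3 were CpG-rich, 4 had copies and none held the CTCF core motif. The other 6 lay nearest Gm6712, BC002059, Lrfn3, Zfp964, Gm5590 and Pxmp3, and the last of the 10, near Bcat2, was in a coding exon. The regions varied much more than these: the range of a region's percentile over the 12 lists was a median of 56.8 points, 44 regions (7.38%) were above the 50th percentile in all lists and 123 (20.6%) below it in all, against 18.4% and 15.2% of all 3175 regions. Spearman's rho of the percentiles of the 596 regions between pairs of lists, given as a description since the lists share regions, was a median of 0.742 for the same class and stage, 0.588 for the same stage and other class, 0.474 for the same class and other stage, and 0.430 when both differed.

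The design asks how these regions change with age. Compared with constitutive promoters they were weaker in the early lists and closer in the late ones, but the rule itself takes part in this: a region had to have a peak in the short late Tle4 lists, which selects for late strength by the measure compared here. The values are therefore a description. Their median fold enrichment in Cux2 CPNs was 13.96, 13.75, 13.5 and 12.0 in the 4 early lists in order of age, then 12.5 (P21) and 12.1 (P48). In Tle4 CThPNs it was 12.9, 13.1, 11.8 and 11.6 early, then 10.95 and 10.4. Constitutive promoters had medians of 16.01, 17.2, 15.7 and 13.7 in the early and 12.5 and 12.8 in the late Cux2 lists, and of 16.1, 15.9, 13.7 and 13.8 in the early and 11.8 and 10.4 in the late Tle4 lists. Promoter medians were lower in both late lists than in every early list of the same class. The distal medians were so in Tle4 CThPNs, while in Cux2 CPNs the P7 list was below both late ones. The log2 difference of the medians, distal minus promoter, was -0.33 to -0.19 in the 8 early lists and -0.11 to 0.0021 in the 4 late lists, without overlap.

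The mean of this difference was -0.25 ± 0.054 (SD over 8 lists) early and -0.047 ± 0.055 (SD over 4 lists) late. Late minus early was 0.20 on the log2 scale, 0.19 in Cux2 and 0.21 in Tle4 lists, and an exact two-sided permutation test that rearranged the stages inside each class gave an adjusted p of 0.0267 (Benjamini-Hochberg over 6 tests). Because of the selection, this p is not evidence of a change with age. In a comparison added after the data were seen, the regions for each list were chosen by the other 11 lists only. Regions lacking a peak were ranked lowest. Late minus early was then 0.17 and did not pass (exact permutation, adjusted p = 0.0533). The early values were -0.36 to -0.19. The late values were -0.012 (Cux2 P21), -0.092 (Cux2 P48), -0.023 (Tle4 P48) and -0.24 (Tle4 P21), the last inside the early range. In the Tle4 P21 list 37.8% of the distal and 20.6% of the promoter regions so chosen had no peak. When 2146 distal and 4899 promoter regions were chosen by the 8 early lists, the Cux2 values were -0.36 to -0.21 early, -0.095 at P21 and -0.24 at P48. In Tle4 CThPNs the P48 value was then -0.67, below the early ones. There 49.3% of the distal and 29.7% of the promoter regions had no peak and were ranked lowest. The distal median thus lay next to the missing values, and -0.67 cannot be read as a measured strength. At P21 66.4% of the distal regions had no peak, so no median could be given. When all lists were trimmed to the 6538 strongest peaks, 113 constitutive distal regions were left and late minus early was 0.061 (exact permutation, adjusted p = 0.0469). Without any 1 of the late lists, with the regions kept, it was 0.175 to 0.230 and the exact permutation test gave an adjusted p of 0.08, the smallest then possible. The classes differed by 0.026 over all ages, with Cux2 higher at 3 of 6 (exact sign-flip permutation, adjusted p = 0.844), and the difference of the stage changes was -0.020 (exact permutation, adjusted p = 0.898).

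The same values were taken by CpG content, after the data were seen and with the same selection. Among CpG-poor regions, distal minus promoter was -0.27 to -0.12 in the early and -0.072 to 0.024 in the late lists, and late minus early was 0.17. Among CpG-rich regions it was -0.21 to -0.082 early and -0.16 to -0.099 late, so the stages overlapped, and late minus early was 0.038. Whether these differ was not tested. The constitutive promoters are mostly CpG-rich (80.0%) and the constitutive distal regions mostly CpG-poor.

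**Figure D4:**
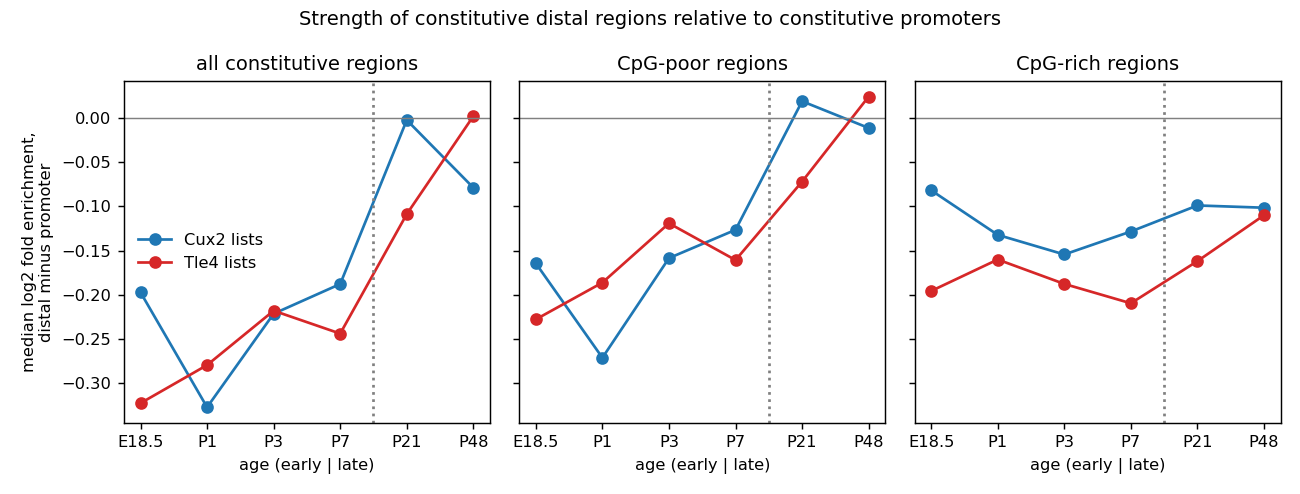
Median log2 fold enrichment of constitutive distal regions minus that of constitutive promoters (y axis) in each of the 12 lists by age (x axis), for all regions, CpG-poor regions and CpG-rich regions; blue is Cux2, red is Tle4, and the dotted line divides early from late. For all regions the 4 late points (-0.11 to 0.0021) lie above the 8 early points (-0.33 to -0.19), in regions that the rule selects on a peak in every late list.

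The 44 regions with the CTCF core motif were close in strength to the 552 without it. In the Cux2 lists their median fold enrichment was 12.25 to 14.6 and that of the others 12.0 to 13.96, and in the Tle4 lists it was 11.2 to 12.96 against 10.4 to 13.2. The log2 difference was 0.041 ± 0.099 (SD over 8 lists) early and 0.059 ± 0.041 (SD over 4 lists) late. None of the 3 contrasts passed in the full lists: late minus early was 0.019 (exact permutation, adjusted p = 0.88), Cux2 minus Tle4 0.030 (adjusted p = 0.844, exact sign flips) and the difference of stage changes -0.14 (exact permutation, adjusted p = 0.613). At equal list length, with 4 CTCF regions, the first was 0.13 and the second 0.095, and both passed (exact permutation, adjusted p = 0.0469).

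Single regions were then called as shifted with stage when their percentile was higher in every late list than in every early list, or lower. This count describes single regions, carries no test and shares the selection on late strength. Higher late were 46 constitutive distal regions (7.72%, interval 5.84 to 10.1), where 4.76% of the 3175 regions in all lists were called, and higher early were 17 (2.85%, interval 1.79 to 4.52), where 7.15% were. Late minus early percentile was a median of 8.54 points over the 596 regions, above 0 in 413, and -1.54 over the promoters. Of the 46 regions higher late, 10.9% were CpG-rich (14.4% of all 596), 10.9% held the CTCF core (7.38%), 34.8% the E-box (24.7%) and 21.7% the AP-1 site (11.4%). Of the 17 higher early, 8 were CpG-rich (47.1%), 8 held the GC box (47.1% against 19.1%), 4 held CCAATCA (23.5% against 12.9%) and 0 the AP-1 site. These subsets are small and were not tested.

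The region with the largest late shift lay 134465 bp downstream of the start of Rgs21, a regulator of G protein signalling, at chr1:146253667-146254427. Its fold enrichment was 21.9 and 19.4 at P21 and P48 in Cux2 CPNs and 14.3 and 14.1 in Tle4 CThPNs, and 7.81 to 13.2 in the early lists. Its percentile was 80.1 to 98.8 late and 1.17 to 45.9 early, without overlap as the call requires. The regions near 5830473C10Rik, Gm14862, 4930452B06Rik and Cnr1, the gene of the main cannabinoid receptor of the brain (the region is at -227479 bp from its start), followed with late minus early differences of 64.8, 58.6, 56.1 and 63.1 points. The largest early shift was a CpG-rich region near Dennd4b with 2 copies of CCAATCA. Its percentile was 71.6 to 94.3 early and 19.65 to 42.3 late. The regions near Ddx19a, Sdcbp2, Zbtb38 and Gm17359 followed, with differences of -50.6, -49.9, -49.5 and -39.9 points. All of these but the one near Zbtb38 were CpG-rich, and that of Ddx19a was in a UTR exon.

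Called by class, 39 regions were higher in Cux2 CPNs at all 6 ages (6.54%, interval 4.82 to 8.82, where 3.97% of all 3175 were) and 33 higher in Tle4 CThPNs (5.54%, interval 3.97 to 7.67, where 4.79% were). The latter share is near that of all regions. The median Cux2 minus Tle4 difference was 1.28 points. The leading Cux2 region, chr14:25661034-25662066, whose nearest protein-coding gene Rps24 starts 351571 bp away, had percentiles of 81.7, 64.4, 42.8, 37.8, 43.9 and 33.7 from E18.5 to P48 in Cux2 CPNs and of 13.8, 15.15, 2.58, 1.92, 2.30 and 13.4 in Tle4 CThPNs. Regions near Skil, a regulator of TGF-beta signalling, Cecr2, Tmem182 and Pde4d, a cyclic AMP phosphodiesterase, followed with differences of 39.8, 39.3, 37.6 and 33.4 points. The leading Tle4 region lay near Limd1 in a UTR exon, with a Cux2 minus Tle4 difference of -42.5 points and percentiles of 5.61 to 78.1 in the Cux2 lists and 69.7 to 99.3 in the Tle4 lists, which overlap across ages. Regions near Tmem90b, Samd9l, Gm9799 and 2310003L22Rik followed, with differences of -37.9, -37.5, -34.7 and -32.3 points. The one near Samd9l is only 329 bp wide and matched a place on chromosome 17 at 96.7% identity over 300 bases, and its sequence resembles small subunit ribosomal RNA.

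The sequences of the leading region of each kind outside exons, and of the ribosomal one, show how unlike they are. Each is the 150 bases around the summit on the plus strand, with matches to the motifs above in capitals. The matches are an E-box and a GC box near Rgs21, and 2 CCAAT words and a GC box near Dennd4b. Near Rps24 they are 2 adjoining RFX words on opposite strands, and near Tmem90b an AP-1 site with an E-box. There is none near Samd9l. The RFX pair was in 2 of the 596 regions, in 39 of all distal regions and in 1 constitutive promoter.
Rgs21, late, chr1:146253902-146254051: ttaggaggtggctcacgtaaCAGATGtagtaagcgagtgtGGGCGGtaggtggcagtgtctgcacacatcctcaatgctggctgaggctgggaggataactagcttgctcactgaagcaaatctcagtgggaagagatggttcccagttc
Dennd4b, early, chr3:90096891-90097040: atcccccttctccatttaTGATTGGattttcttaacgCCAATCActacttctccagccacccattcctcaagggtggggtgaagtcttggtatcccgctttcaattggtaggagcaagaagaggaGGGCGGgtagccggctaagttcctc
Rps24, Cux2, chr14:25661436-25661585: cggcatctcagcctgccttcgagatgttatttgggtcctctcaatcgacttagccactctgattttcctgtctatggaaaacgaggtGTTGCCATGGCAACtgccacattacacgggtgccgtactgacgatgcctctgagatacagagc
Tmem90b, Tle4, chr2:149492268-149492417: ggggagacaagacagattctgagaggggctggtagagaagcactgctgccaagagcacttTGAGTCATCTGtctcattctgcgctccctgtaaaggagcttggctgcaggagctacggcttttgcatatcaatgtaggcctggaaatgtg
Samd9l, Tle4, chr6:3151419-3151568: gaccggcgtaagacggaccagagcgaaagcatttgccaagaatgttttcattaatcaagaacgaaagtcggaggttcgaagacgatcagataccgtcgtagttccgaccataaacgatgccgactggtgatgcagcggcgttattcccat

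**Figure D5:**
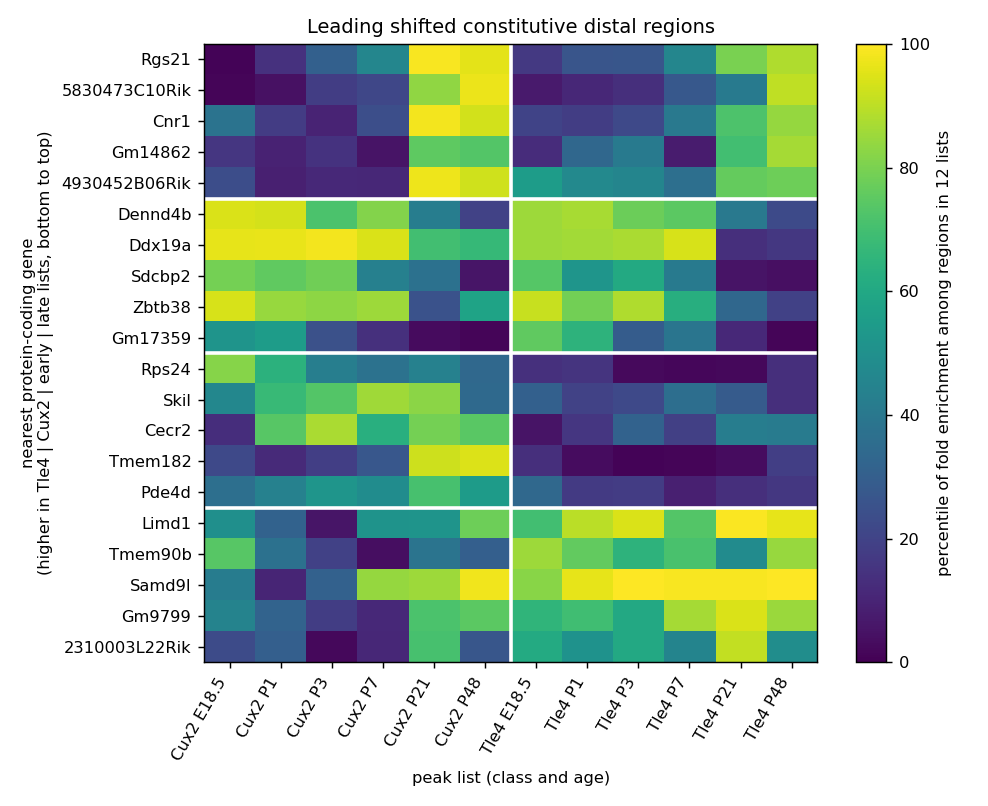
Percentile of fold enrichment (colour, 0 to 100, among the 3175 regions in all lists) of the 20 leading shifted constitutive distal regions (rows, named by nearest protein-coding gene) in each of the 12 lists (columns). From top to bottom, 5 rows each are higher late, higher early, higher in Cux2 and higher in Tle4 lists, by the calls that chose them.

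Genes that define the classes had no constitutive distal region nearby. Within 100 kb of a TSS, 7.35% of all 22225 protein-coding genes had one. Of 11 upper-layer callosal genes and of 10 corticothalamic genes, 0 did. Of 16 neuronal transcription factors, 2 did: Mef2d, a transcription factor of the MEF2 family, 9715 bp downstream of its start, and Myt1l, which represses non-neuronal genes, 32371 bp downstream. Of 11 activity-regulated genes, Fos and Nr4a1 did, and of 11 genes of chromosome architecture Yy1. With lists this short, 0 genes is not distinguishable from the share of all genes.

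The region at -25943 bp from the start of Nr4a1, an immediate early transcription factor, was among the 17 higher early. Its percentile was 24.2 to 85.2 in the early lists (median 37.5) and 0.598 to 5.64 in the late lists, without overlap as the call requires. Its fold enrichment ran from 5.87 to 17.5. The CpG-rich region at -18450 bp from the start of Fos was among the 39 higher in Cux2 CPNs, by 23.5 points, at a mean percentile of 25.4. The region near Yy1, also CpG-rich, had a mean percentile of 55.1, while those in Mef2d and Myt1l were weak, at 13.1 and 20.6.

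The limits of the rule cut through similar regions. Constitutive distal regions just outside the 1 kb limit lay 1041 bp (Gm14862) and 1049 bp (Gpm6a) from a TSS, with mean percentiles of 37.1 and 21.9. Just inside the limit, at 999, 944 and 932 bp, were regions near Gm17227, Sin3a and Mamstr, with mean percentiles of 34.7, 0.365 and 44.5. One list decided much of the other limit: of the 618 distal regions in 11 lists, 362 (58.6%) were missing from Tle4 P21, the shortest, and without that list the number of constitutive distal regions was 958. The strongest regions in 11 lists lay near Zfp947 (13.4 to 24.3-fold enrichment), a CpG-rich region with CCAATCA, and near Smug1 and Dhrs2. The first 2 were missing from Tle4 P21 and the third from Tle4 P7.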

How the data were processed

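The data were 12 peak lists, 1 per neuron class and age, from 24 ATAC-seq libraries grouped by their labels. The authors mapped the reads to NCBI37 (mm9) by Bowtie2, used Picard and MACS2, and deposited lists named as final after IDR, with peaks of the pooled replicates. Shifting of reads for the cut offset is not given in the sources used here. The deposited fold enrichment is a ratio over background at the summit. The deposited −log10 p and the deposited summit offset, a distance in bp from the start of the peak, belong to the same peak. The lists hold no counts, so the depth behind each value cannot be read from them, and intervals cover counting error of regions only.

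Peaks on chromosomes 1 to 19, X and Y (292934 of 292994) were merged, and TSSs, genes and sequence were taken from NCBIM37 with GENCODE vM1. Of these peaks, 1 passed the end of its reference chromosome. Strength was the fold enrichment of a region's strongest peak by −log10 p. Lists were compared by exact permutation tests (Python 3.11.15, scipy 1.17.1), adjusted over 6 tests at 0.05, and copies were found with BLAST 2.17.0. The scripts were tested on simulated data. Alternatives were: each list left out, lists of equal length, a common −log10 p, other distances, overlaps, windows and motifs. Named regions were the 10 with the highest mean percentile, 5 per called shift, 3 on each side of each limit, and those near listed genes. The regions, lists and tests were chosen with earlier results of these data known. Regions on chromosome 18 are not printed as sequence. Some items that the rule for named regions covers are not reported here.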

Additional observations from a re-analysis of the deposited data

Results flagged for a closer look

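One value stood far from the others of its group: constitutive distal regions were 9.14% of the regions of the Tle4 P21 list, against 2.66% to 5.04% in the other Tle4 lists (its gap to the next list was 0.633 of the range over 6 lists). By the rule every list holds all of these regions, so the share follows from the length of the list alone. That list is the shortest, with 6540 peaks, and the flag is no separate result. Chance alone puts about 1 in 20 groups past this limit, and 10 were examined.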

How the results depend on the processing

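No paired analysis was possible because the replicates were pooled in each list, so their numbers pair nothing (classes were paired by age). The number of regions, 596, was 598 to 958 with 1 list left out, 113 with lists of equal length (6538 peaks) and 305 at a common −log10 p of 21.97. The CTCF share, 7.38%, was 6.85% to 7.78% with 1 list left out, 3.54% (4 of 113) at equal length, 19.3% with up to 1 mismatch and 1.17% for the 9-letter core AGGGGGCGC. For the other distal regions, 2.27%, it was 2.45% in the whole region, 7.34% and 0.401%. The CpG-rich share was 8.89% over whole regions. Late minus early of distal minus promoter strength was 0.175 to 0.230 with 1 list left out, 0.038 in CpG-rich regions, and 0.17 (exact permutation, adjusted p = 0.0533) with regions chosen by the other 11 lists. Its other contrasts, not passing, turned: Cux2 minus Tle4 to -0.037 by −log10 p, and the difference of stage changes to 0.14 by −log10 p, 0.0096 at equal length 0.034 in CpG-poor regions and 0.045 with regions chosen by the other 11 lists (-0.075 to 0.035 with 1 list left out). Cux2 minus Tle4 was 0.048 at equal length and passed there (exact permutation, adjusted p = 0.0469). CTCF minus other, late minus early, was -5.47e-05 beyond 5 kb, -0.0023 in 200 bp windows and 0.13 at equal length, and Cux2 minus Tle4 -0.010 beyond 5 kb and 0.095 at equal length. Both passed at equal length, on 4 CTCF regions (exact permutation, adjusted p = 0.0469). Leaving out 1 list gave 48 to 77 regions higher late (77 without Tle4 P21), 17 to 25 higher early, 47 to 73 higher in Cux2 (73 without Cux2 P48 or Tle4 P48, 59 without either P1 list) and 38 to 56 higher in Tle4 (56 without either P21 list). A left-out list leaves fewer conditions to meet. The causes of the other changes were not tested. The CCAATCA share was 11.2% in CpG-poor regions, and without copied regions the 4 shift counts were 44, 17, 39 and 28. The settings on CpG content, copies and choice by other lists were added after the data were seen.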
